A study of Mus musculus with 5 samples.

Results

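The 9 genes described here encode the transforming growth factor beta (TGF-beta) ligands Tgfb1, Tgfb2 and Tgfb3, the receptors Tgfbr1, Tgfbr2 and Tgfbr3, the intracellular transducer Smad3, its antagonist Smad7 and the matrix protein Thbs1. They were taken by name, as every probe whose transcript accession belonged to 1 of these genes, which gave 13 of 41174 probes and 9 of 18327 named genes. All 9 genes had a probe that was well above background on at least 1 array. RNA from 5 mouse cell populations was hybridised to 5 whole-genome expression arrays, 1 array for each population, so no difference below has a replicate, a p-value or a biological error. ES was the embryonic stem cell line E14. Hepa1-6 was a mouse hepatoma line. EHe was an undifferentiated hybrid made by polyethylene glycol fusion of E14 with Hepa1-6, and EHeD7 and EHeD14 were the same hybrid after 7 and 14 days of differentiation in vitro. The fusion partners carried a red fluorescent protein with hygromycin resistance on the ES side and a green fluorescent protein with neomycin resistance on the cancer side, and the hybrids were near-tetraploid colonies picked after double drug selection, so each value stands for a selected hybrid line and not for independent fusions.

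Leukemia inhibitory factor, serum replacement and little fetal serum were used for the undifferentiated cells. Per the labels, the differentiating hybrid was grown as a monolayer on gelatin in high-glucose medium with more fetal calf serum and no added leukemia inhibitory factor, and Hepa1-6 in a similar medium. The methods of the study instead describe floating embryoid bodies in serum replacement for differentiation in vitro, without naming the array samples, so the differentiation medium is not settled here. On either account the culture differed along with the cell state, and their effects cannot be told apart. The 4 arrays of ES and the hybrids shared 1 slide and the Hepa1-6 array was on another, so a slide effect and the hepatoma line cannot be told apart either. The labels were checked against marker genes. All 5 pluripotency markers with a probe were well above background in ES, EHe, EHeD7 and EHeD14, and 1 of the 5 in Hepa1-6. Detection thus did not separate EHe from the differentiated cultures. By level, 2 of the 5 were past 3-fold lower than in EHe on both days, beside 3.67% and 4.21% of all probes. In EHe, EHeD7 and EHeD14 the log2 levels were 5.68, 2.62 and 1.60 for Zfp42 and 3.47, 1.68 and 1.31 for Sox2. Pou5f1, at 4.04, 4.41 and 4.18, Dppa5a and Tdgf1 did not pass 3-fold. Of 8 hepatocyte markers with a probe, 7 were well above background in Hepa1-6, where transthyretin (Ttr) was not, against 1 to 3 in the other populations.

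TGF-beta ligands are secreted as latent dimers that are stored in the extracellular matrix and must be released before they can signal. The active ligand is bound by the type II receptor Tgfbr2, which phosphorylates the type I receptor Tgfbr1, and Tgfbr1 then phosphorylates Smad2 and Smad3, which enter the nucleus with Smad4 and regulate target genes. The pathway is known for restraining the growth of hepatocytes and other epithelial cells, and for driving matrix production and epithelial-mesenchymal transition in liver cancer and in differentiating stem cells.

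Upstream sequences are given for 3 genes whose patterns across the arrays differed from one another: Tgfb1, which was higher in the differentiated hybrid and highest in Hepa1-6, Tgfb2, which was detected in the differentiated hybrid alone, and Tgfbr2, which was high in Hepa1-6 alone. Each is the 250 bases before the annotated transcription start in RefSeq (mouse build GRCm38.p6), written 5′ to 3′ on the gene's own strand. Entries were used for 5 of the 9 genes, with 2 starts for Tgfbr1. Capitals mark every match, on either strand, to 6 motifs: a TATA box (TATAAA), an E-box (CACGTG), the core of a cyclic AMP response element (TGACG), an AP-1 site (TGANTCA), an Sp1 GC box (GGGCGG) and a SMAD box (CAGAC).
Tgfb1, chr7:25686752-25687001, plus strand: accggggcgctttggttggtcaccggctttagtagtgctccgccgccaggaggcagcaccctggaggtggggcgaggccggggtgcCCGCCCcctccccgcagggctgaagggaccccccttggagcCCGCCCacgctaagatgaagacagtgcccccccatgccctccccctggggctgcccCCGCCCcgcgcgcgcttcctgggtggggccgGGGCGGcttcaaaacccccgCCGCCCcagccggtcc
Tgfb2, chr1:186705990-186706239, minus strand: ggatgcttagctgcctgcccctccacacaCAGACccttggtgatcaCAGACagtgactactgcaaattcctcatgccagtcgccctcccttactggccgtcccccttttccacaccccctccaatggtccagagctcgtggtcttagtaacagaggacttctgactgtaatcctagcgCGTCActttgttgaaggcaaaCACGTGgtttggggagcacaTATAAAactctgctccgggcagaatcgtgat
Tgfbr2, chr9:116175364-116175613, minus strand: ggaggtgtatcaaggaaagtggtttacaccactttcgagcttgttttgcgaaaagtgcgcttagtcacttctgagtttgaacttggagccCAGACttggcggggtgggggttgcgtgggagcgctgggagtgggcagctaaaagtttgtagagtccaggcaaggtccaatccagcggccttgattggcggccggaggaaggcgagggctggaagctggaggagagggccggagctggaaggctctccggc
The Tgfb1 window was 75.2% G and C and held 5 Sp1 GC boxes. The Tgfb2 window was 53.6% G and C and held a TATA box from 31 to 26 bases before the start, an E-box from 51 to 46, a cyclic AMP response element core from 72 to 68, read on the opposite strand as CGTCA, and 2 SMAD boxes, with no overlap between them. The Tgfbr2 window was 58.4% G and C and held 1 SMAD box from 160 to 156 bases before the start. Across 32841 mouse promoter windows of the same length the median content of G and C was 52.4%, and 12.4% held TATAAA, 6.02% CACGTG, 17.8% TGACG, 6.75% TGANTCA, 32.7% GGGCGG and 42.2% CAGAC on either strand. These matches describe letters in a window and are not evidence that any factor bound there. The array values that follow were read from the transcripts, not from these windows.

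The levels below are log2 processed signals relative to the 75th percentile signal of the same array, so a gene at 0 was as bright as that percentile and a step of 1 is a doubling. A probe that the scanner software did not call well above background has only an upper bound, and a fold against it is given as "at least". The bound is the brighter level against the higher of the dim probe's own level and the detection limit, which is the level of the lowest single spot called well above background on the dim array. Levels were compared between arrays for 1 gene at a time and never between genes, because probes differ in brightness.

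**Figure D1:**
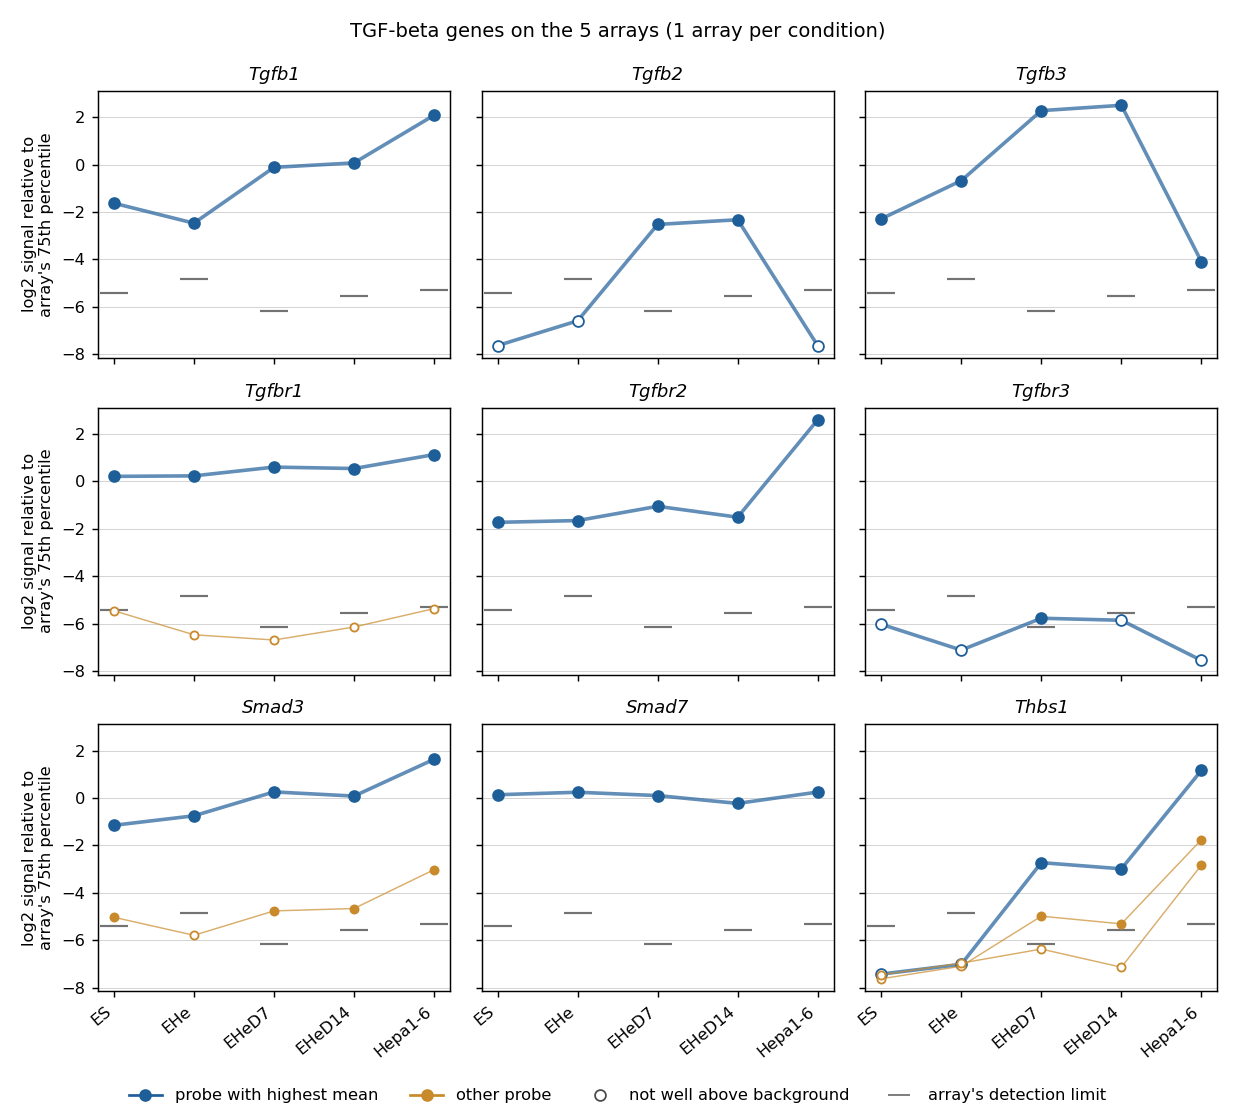
Log2 level (vertical axis, relative to each array's 75th percentile) of the 9 TGF-beta genes on the ES, EHe, EHeD7, EHeD14 and Hepa1-6 arrays, with 1 array for each. Filled points were well above background, open points were not, grey dashes mark each array's detection limit and gold lines are further probes of the same gene. Tgfb1 was lowest in EHe at -2.47 and highest in Hepa1-6 at 2.08, and Tgfb2 was above background only in EHeD7 and EHeD14.

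Tgfb1, the most widely expressed TGF-beta ligand, was well above background in every population. It had a log2 level of -1.63 in ES, -2.47 in EHe and 2.08 in Hepa1-6, with -0.11 at day 7 (EHeD7) and 0.07 at day 14 (EHeD14) of differentiation. In the order ES, EHe, EHeD7, EHeD14, Hepa1-6 these are processed signals of 352, 233, 1207, 1405 and 6177. EHe was thus the lowest of the 5, below its ES parent as well as its hepatoma parent. The Tgfb1 level was 1.79-fold lower in EHe than in ES, 5.12-fold higher in EHeD7 than in EHe and 5.83-fold higher in EHeD14 than in EHe. Hepa1-6 remained above them all, at 13.1-fold the ES level and 4.03-fold the EHeD14 level.

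The Tgfb1 probe was printed 10 times on each array, which gives a measure of error within an array. On the log2 scale the SD over its 10 spots was 0.10 (ES), 0.11 (EHe), 0.042 (EHeD7), 0.073 (EHeD14) and 0.060 (Hepa1-6). The spots ranged from -0.20 to -0.07 in EHeD7 and from -0.04 to 0.17 in EHeD14, and the ranges of no pair of arrays overlapped. The step of 0.19 between EHeD7 and EHeD14 was larger than the SD over spots on any of the 5 arrays, but that SD includes neither culture nor labelling, so it is no test between the 2 days. Over the probes printed 10 times the median spot SD was 0.092 to 0.139 by array, and the other members, printed once, have no such error.

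**Figure D2:**
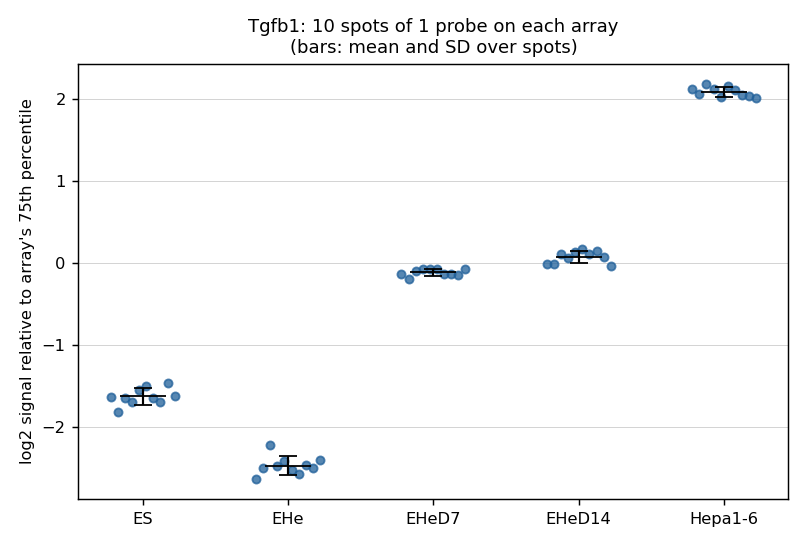
Log2 level of each of the 10 Tgfb1 spots (points) on the ES, EHe, EHeD7, EHeD14 and Hepa1-6 arrays, with the mean and the SD over spots. The spots of each array form a separate band, from a mean of -2.47 in EHe to 2.08 in Hepa1-6; the bars show spot error within an array, not error between cultures.

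Tgfb2, a ligand with prominent roles in embryonic development, was detected in the differentiated hybrid alone. Its log2 level was -7.63 in ES, -6.59 in EHe and -7.64 in Hepa1-6, all not well above background, against -2.52 in EHeD7 and -2.32 in EHeD14. Neither parent line and no undifferentiated culture therefore gave a level that could be read. The Tgfb2 level in EHeD14 was at least 5.72-fold higher than in EHe, at least 8.55-fold higher than in ES and at least 7.89-fold higher than in Hepa1-6. EHeD7 was at least 4.99-fold higher than EHe.

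Tgfb3, a ligand known for its part in palate closure and in epithelial-mesenchymal transition, was also highest in the differentiated hybrid but was detected everywhere. The ES and EHe arrays gave log2 levels of -2.29 and -0.67, the EHeD7 and EHeD14 arrays 2.28 and 2.50, and the Hepa1-6 array -4.09. The hepatoma was the lowest of the 5, the reverse of its place for Tgfb1. The Tgfb3 level was 7.74-fold higher in EHeD7 and 9.05-fold higher in EHeD14 than in EHe, and EHeD14 stood 96.8-fold above Hepa1-6 and 27.7-fold above ES. EHe was already 3.06-fold above ES, a value just past the 3-fold line used for the counts below. With normexp background correction, which adds an offset and so shrinks differences at low signal, it was 1.07 on the log2 scale and under that line. Tgfb3 was 3.50-fold lower in Hepa1-6 than in ES, and this also fell short of 3-fold with normexp, quantile normalization or median centring, at -1.07, -1.17 and -1.02 on the log2 scale.

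Among the receptors, Tgfbr2, the ligand-binding type II receptor, separated Hepa1-6 from every other population. Its log2 level reached 2.60 in Hepa1-6 and was -1.73 in ES, -1.66 in EHe, -1.05 in EHeD7 and -1.51 in EHeD14. The 4 cell populations on the shared slide lay within 0.68 of one another, and Hepa1-6 was 20.1-fold above ES and 19.1-fold above EHe. The Tgfbr2 level in EHeD7 was 1.52-fold and in EHeD14 1.10-fold that in EHe, and EHeD14 stayed 17.3-fold below Hepa1-6.

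For Tgfbr1, the type I receptor kinase, the log2 levels were 0.21 (ES), 0.23 (EHe), 0.60 (EHeD7), 0.54 (EHeD14) and 1.13 (Hepa1-6), so Hepa1-6 was 1.89-fold above ES. That difference depended on the scaling, being 0.92 on the log2 scale here and 1.70, past 3-fold, with median centring. A further Tgfbr1 probe was not well above background on any array and gives no fold. Tgfbr3, the co-receptor betaglycan that presents ligand to Tgfbr2, was close to the detection limit in EHeD7 and below it on the other arrays. Tgfbr3 log2 levels were -6.03 (ES), -7.12 (EHe), -5.78 (EHeD7), -5.86 (EHeD14) and -7.56 (Hepa1-6), of which EHeD7 alone was well above background, and no fold can be read from it.

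Smad3, the receptor-activated transducer, was, like Tgfb1, highest in Hepa1-6 with the differentiated hybrid between it and the undifferentiated cells, at smaller folds. From ES at -1.15 and EHe at -0.75 its log2 level went to 0.26 in EHeD7, 0.08 in EHeD14 and 1.63 in Hepa1-6. The Smad3 level was 6.89-fold that of ES in Hepa1-6, and 2.01-fold and 1.78-fold higher in EHeD7 and EHeD14 than in EHe. A dimmer Smad3 probe gave 4.02-fold for Hepa1-6 over ES and was not well above background in EHe. Smad7, the inhibitory Smad that is itself induced by TGF-beta signaling and blocks the type I receptor, passed 3-fold in no comparison. Smad7 log2 levels were 0.14 (ES), 0.24 (EHe), 0.10 (EHeD7), -0.23 (EHeD14) and 0.25 (Hepa1-6), so that the lowest and the highest population, EHeD14 and Hepa1-6, differed by 1.39-fold. With median centring that difference was -1.31 on the log2 scale in place of -0.48.

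Thbs1, thrombospondin-1, an extracellular protein that can release TGF-beta from its latent complex and is also a target of the pathway, was not detected in undifferentiated cells. Its log2 level was -7.43 in ES and -7.02 in EHe, not well above background, against -2.73 in EHeD7, -2.99 in EHeD14 and 1.17 in Hepa1-6. The differentiated hybrid was thus between the undifferentiated cells and the hepatoma, as for Tgfb1. The Thbs1 level was at least 4.32-fold higher in EHeD7 and at least 3.61-fold higher in EHeD14 than in EHe, and Hepa1-6 was at least 96.1-fold above ES. EHeD14 was 17.8-fold below Hepa1-6. With normexp background correction the Thbs1 differences of EHeD7 and EHeD14 from EHe were 1.56 and 1.33 on the log2 scale, under 3-fold. Of the other 2 Thbs1 probes, both dimmer, 1 passed background in both differentiated cultures and in Hepa1-6 and the other in Hepa1-6 alone, which was the brightest array for all 3. Neither gave a fold of the differentiated cultures over EHe. The first, at -4.99 in EHeD7 and -5.31 in EHeD14, was below the EHe detection limit of -4.84.

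**Figure D3:**
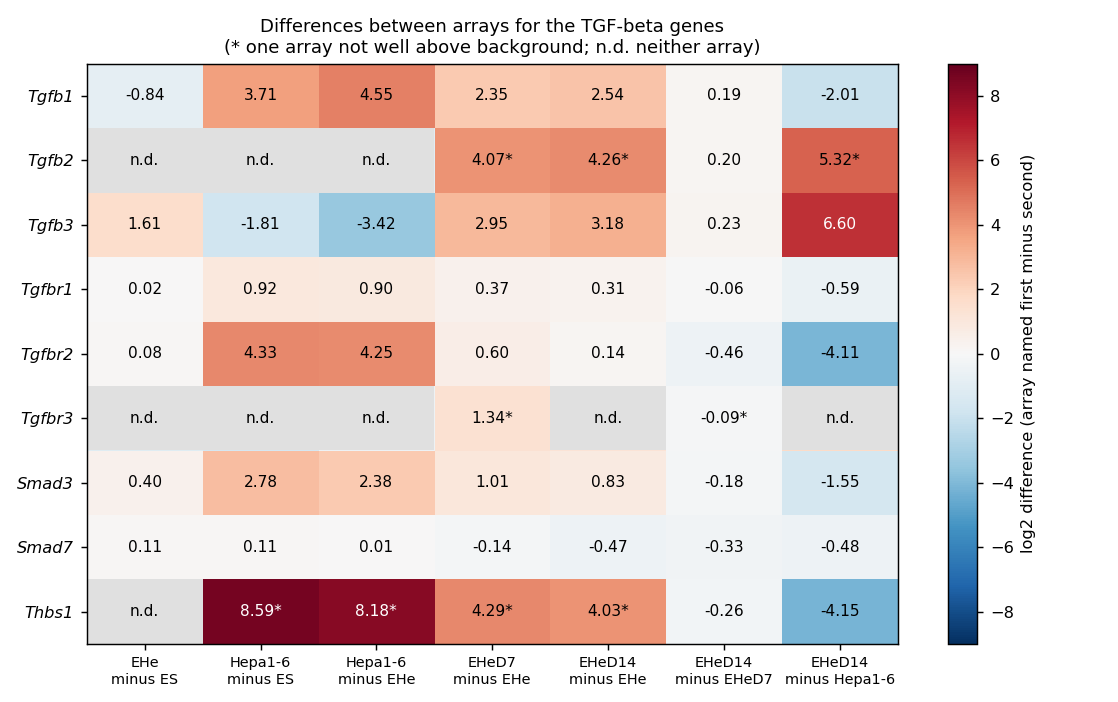
Log2 differences between arrays (color scale and printed values, array named first minus array named second) for the 9 TGF-beta genes in 7 comparisons. An asterisk marks a difference in which 1 array was not well above background, for which only a bound can be read, and n.d. marks genes above background on neither. Tgfb1, Tgfb2, Tgfb3 and Thbs1 were higher in both differentiated cultures than in EHe, whereas Tgfbr2 stood apart only where Hepa1-6 was compared.

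The members were then counted past a 3-fold difference with the brighter array well above background, beside the share of all probes past the same line. Against EHe, 4 of the 9 members were higher in EHeD7 and 0 lower, where 8% of all probes were higher and 3.67% lower. The same count held in EHeD14, with 4 higher and 0 lower beside 8.18% and 4.21% of all probes, and the 4 were Tgfb1, Tgfb2, Tgfb3 and Thbs1 on both days. The median log2 difference over the 9 members, with differences from a dim array set to their bound or to 0 where there was none, was 1.01 in EHeD7 and 0.83 in EHeD14. Over all probes, with dim values as measured, it was -0.08 and -0.06. Between EHeD14 and EHeD7 no member passed the line in either direction, where 0.975% of all probes were higher and 1.42% lower. The EHeD7 and EHeD14 comparisons share the EHe array and are not independent of each other.

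Between EHe and ES, 1 member was past 3-fold higher, Tgfb3, and 0 lower, where 3.07% of all probes were higher and 5.42% lower. Between the parents, 4 members were higher in Hepa1-6 than in ES (Tgfb1, Tgfbr2, Smad3 and Thbs1) and 1 was lower (Tgfb3), beside 14.1% and 23.7% of all probes. With median centring the counts were 5, Tgfbr1 being added, and 0. The same 5 genes were past the line between Hepa1-6 and EHe, where 14% of all probes were higher and 18.7% lower. The member median for Hepa1-6 minus ES was 0.92 and that of all probes was -0.40. The study's own list of TGF-beta pathway genes from these data names Tgfb1, Tgfbr2, Smad3 and Thbs1, each lower in ES and EHe than in Hepa1-6. The members were chosen with earlier results known. The counts and the median that involve Hepa1-6 are therefore a description and not an independent result. In EHeD14 against Hepa1-6, Tgfb2 and Tgfb3 were higher and Tgfb1, Tgfbr2 and Thbs1 lower, a count of 2 and 3 beside 20.8% and 12.6% of all probes.

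The study asked how far the differentiated hybrids return to the expression of the cancer parent, and for members measured on all arrays and past 3-fold between Hepa1-6 and EHe this can be written as the share of that log2 gap that EHeD7 or EHeD14 closed. For Tgfb1 the share was 51.7% in EHeD7 and 55.9% in EHeD14. For Smad3 it was 42.3% and 34.9%, and for Tgfbr2 14.1% and 3.35%. Tgfb3 lay in the opposite direction, at -86.3% and -92.9%, since the differentiated hybrid was higher than EHe while the hepatoma was lower. Other settings moved some of these shares by over 1.5 times. With median centring the Smad3 shares were 27.2% and 22.1% and the Tgfbr2 share in EHeD14 was -0.27%, and with normexp the Tgfb3 shares were both -139% and the Tgfbr2 share in EHeD7 was 7.92%. Over all probes eligible in the same way the median share was 16.8% for 4801 probes in EHeD7 and 17.5% for 4774 in EHeD14. Each of these shares contains the EHe array in both terms and is a description only. The ligand Tgfb1 and its transducer Smad3 were thus part of the way to the hepatoma level, the receptor Tgfbr2 was close to the EHe level, and Tgfb2 and Tgfb3 were above both parents.

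The rest of the pathway was read from a list of 45 further genes, of which 41 had a named probe. In EHeD7 against EHe, 9 of the 41 were past 3-fold higher and 3 lower, and in EHeD14 against EHe 8 were higher and 4 lower, beside the 8% and 3.67% and the 8.18% and 4.21% of all probes given above. With normexp these counts were 5 and 0 in EHeD7 and 4 and 2 in EHeD14, and with probes well above background on all 5 arrays 3 genes were higher on each day. With dim values raised to the detection limit the counts were 7 and 3 in EHeD7 and 6 and 4 in EHeD14. The median log2 difference of the 41 genes in EHeD14 was 0.31, or 0.27 with dim arrays at their bound, and that of all probes was -0.06. By role, the higher genes in EHeD14 were 2 of 9 storage and activation genes, 1 of 6 co-receptors and ligand traps, 0 of 4 Smads and adaptors, 1 of 8 negative regulators and 4 of 14 target genes. The lower genes were 1 storage gene and 3 target genes. The genes named next are, for each role, the 4 with the largest EHeD14 minus EHe difference.

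Among the latent TGF-beta binding proteins, which hold the latent ligand in the matrix, Ltbp3 was 3.25-fold and Ltbp1 3.04-fold higher in EHeD14 than in EHe. Ltbp2, the family member that is mainly a matrix protein, was 2.21-fold higher and below the 3-fold line. Ltbp4 went the other way, 3.22-fold lower in EHeD14, with log2 levels of 4.62 (ES), 4.92 (EHe), 3.83 (EHeD7), 3.23 (EHeD14) and 1.30 (Hepa1-6). Ltbp3 and Ltbp4 were also opposed between the parents, Ltbp3 being 48.7-fold higher and Ltbp4 10.0-fold lower in Hepa1-6 than in ES.

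Among the co-receptors and traps, Acvrl1, the alternative type I receptor ALK1, was well above background in EHeD7 and EHeD14 alone, at -4.89 and -5.05. Its difference from EHe counted as past 3-fold, yet its level was below the EHe detection limit, so no fold can be given. Biglycan (Bgn) was at least 1.69-fold higher in EHeD14 than in EHe. Bambi, a pseudoreceptor that lacks the kinase domain, was 1.43-fold higher and endoglin (Eng) 1.31-fold higher, both below the line. Decorin (Dcn), a proteoglycan that binds TGF-beta, is named outside that rule after its values were seen. It was not well above background in any of the other 4 populations, at -7.16 to -6.71, and was 7.46 in Hepa1-6, at least 7530-fold above ES.

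The 4 Smads and adaptors lay within 1.69-fold of EHe in EHeD14. Smad2, the other receptor-activated Smad of the pathway, had a log2 difference of -0.75, the kinase Map3k7 of 0.38, its binding protein Tab1 of 0.27 and the common Smad, Smad4, of 0.16. Smad2 was thus lower and Smad3 higher in EHeD14 than in EHe, both by less than 3-fold.

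Among the negative regulators, Pmepa1, a TGF-beta-induced protein that sequesters receptor Smads, had log2 levels of -0.44 in ES, -1.70 in EHe, 0.35 in EHeD7 and 0.56 in EHeD14 and was not well above background in Hepa1-6. It was 4.76-fold higher in EHeD14 than in EHe and at least 58.1-fold higher than in Hepa1-6. Skil, the corepressor SnoN, was 2.31-fold higher, the ubiquitin ligase Smurf2 1.48-fold higher and the phosphatase Ppm1a 1.40-fold higher. Pmepa1 alone of the 8 passed 3-fold.

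Of the target genes, Ccn2, connective tissue growth factor, had the largest difference of the list. The parents had Ccn2 log2 levels of 1.22 (ES) and 6.49 (Hepa1-6), and the hybrid -1.52 in EHe, 4.33 in EHeD7 and 4.65 in EHeD14, which made EHe 6.68-fold lower than ES and EHeD14 72.0-fold higher than EHe. As for Tgfb1, EHe was the lowest and Hepa1-6 the highest of the 5. Snai1, a transcriptional repressor of E-cadherin, was at least 5.23-fold higher in EHeD14 than in EHe, and Cdkn1a, the cell cycle inhibitor p21, was 4.82-fold higher. Ankrd1, a nuclear ankyrin repeat protein, counted as past 3-fold higher in EHeD14 than in EHe, but its bound was at least 1.76-fold, short of the line. It was 112-fold above ES in Hepa1-6.

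The 3 target genes past 3-fold lower in EHeD14 are named after their values were seen. They were the repressor Snai2, 4.11-fold lower than in EHe, the matrix protein Tgfbi, 3.66-fold lower, and fibronectin (Fn1), 3.35-fold lower. The targets thus did not move as 1 group in the differentiated hybrid. Between the parents, 9 of the 14 target genes passed the 3-fold line upward in the hepatoma and 2 downward, beside 14.1% and 23.7% of all probes, with a list median of 2.08 against -0.40 over all probes. Between EHe and ES, 0 were higher and 4 lower, beside 3.07% and 5.42% of all probes, the 4 being Ccn2, Snai1, Ankrd1 and Tgfbi. Snai1 and Ankrd1 did not pass background in EHe, and their bounds were at least 2.56-fold, which is short of the line, and at least 15.1-fold.

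**Figure D4:**
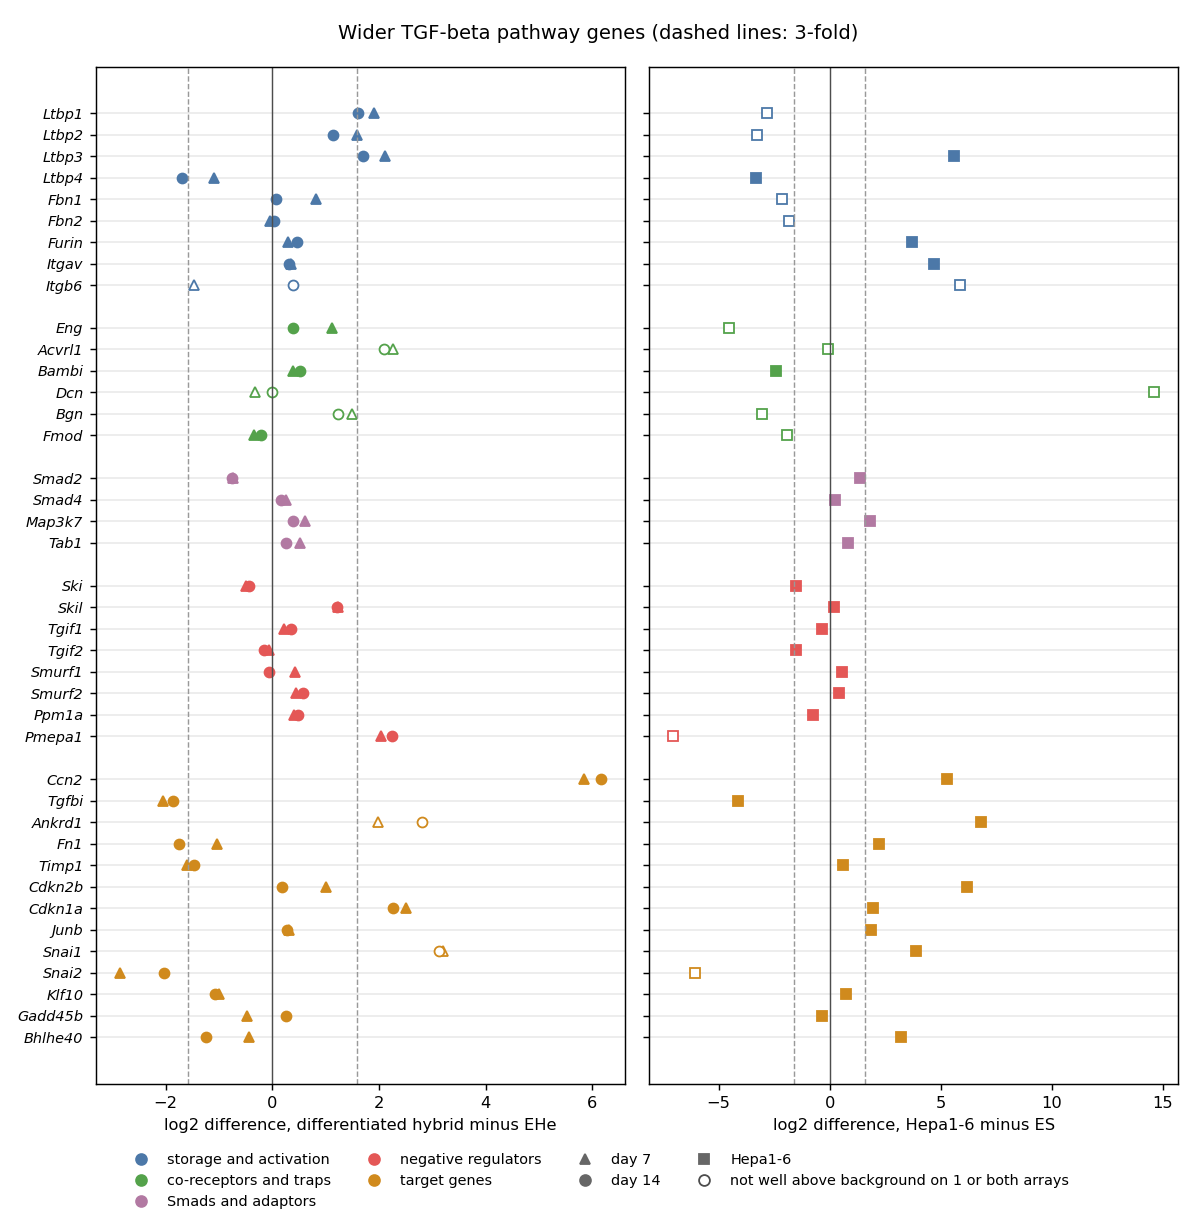
Log2 difference (horizontal axes) for 40 of the 41 further genes of the TGF-beta pathway, grouped by role, in EHeD7 and EHeD14 against EHe (left) and in Hepa1-6 against ES (right). Open symbols were not well above background on 1 or both arrays and dashed lines mark 3-fold. Ccn2 lies farthest to the right in the left panel at 6.17 in EHeD14, and Dcn in the right panel at 14.62, a difference from a level below detection in ES.

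Several fibroblast, mesenchyme and smooth muscle markers were, like the ligands, higher in the differentiated hybrid than in EHe. The summed level of the endothelial markers was lower, mainly through Pecam1. Of 8 fibroblast and mesenchyme markers, 4 were well above background in EHe, 7 in EHeD7 and 7 in EHeD14, and their summed level, in units of each array's 75th percentile signal, was 1.00, 4.91 and 5.48. Of all probes, 56.9%, 67.6% and 63.6% were well above background on these arrays, and EHe had the highest detection limit. By measured difference 7 of the 8 were past 3-fold higher in EHeD14 than in EHe, beside 8.18% of all probes. Of these, 4 were well above background on both arrays (Col1a1, Col1a2, Pdgfrb and Thy1), whereas Col3a1, Postn and Pdgfra were not in EHe and had bounds of at least 2.16-fold, 1.45-fold and 2.62-fold, under the line. Lumican (Lum) was not well above background on any array. Of 5 smooth muscle markers, 4 were well above background in EHe and all 5 in EHeD7 and EHeD14, with summed levels of 13.8, 28.4 and 27.9. In EHeD14 3 of the 5 were past 3-fold higher than in EHe, beside the same 8.18% of all probes. Acta2 was level, at 3.67, 3.67 and 3.70 in EHe, EHeD7 and EHeD14. The part of these mesenchyme and smooth muscle markers in the Tgfb1, Tgfb2, Tgfb3, Thbs1 and Ccn2 differences was not tested. In a bulk sample, more cells of a type and more RNA per cell cannot be told apart. In Hepa1-6, where Tgfb1, Tgfbr2, Smad3 and Thbs1 were highest, 2 of the 8 mesenchyme markers were well above background and their summed level was 0.240, below the ES value of 1.77. Of the 5 smooth muscle markers 2 were well above background there, Acta2 at 4.09 and Tagln at -0.86. The smooth muscle sum was 17.6 in Hepa1-6, above 16.1 in ES and 13.8 in EHe. Decorin, outside these lists of markers, was at 7.46 in Hepa1-6. The part of any of these in the Hepa1-6 levels was not tested. Of 5 endothelial markers, 1 or 2 were well above background in EHe, EHeD7 and EHeD14, and none was in Hepa1-6. Their summed level was 0.435 in EHe, 0.087 in EHeD7 and 0.070 in EHeD14. Most of the EHe sum was Pecam1. Its level was -0.48 in ES and went from -1.33 in EHe to -4.51 and -5.78 on these days, the last not well above background. Tek went from -6.22 in EHe, not well above background, to -5.17 in EHeD7 and -5.10 in EHeD14, both well above it. These Tek levels are below the EHe detection limit, so no fold can be read. Cdh5, Kdr and Emcn were not well above background on any array. Of 4 blood markers with a probe, Ptprc and Adgre1 were not well above background on any array and Itgam was in ES and EHe alone. Cd14 was well above background on all 5, at -2.72 (ES), -0.35 (EHe), 0.59 (EHeD7), 0.43 (EHeD14) and 2.39 (Hepa1-6), and its part in the member differences was not tested.

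Across all arrays, genes with a profile most like that of each member were sought among 10891 named genes well above background everywhere, by the root mean square difference of log2 levels after centring each gene on its own mean over the 5 arrays. With 5 arrays many genes share a profile, so this is a description only. Profiles were not scaled to a common range, so the distance grows with a gene's own range and is not compared between members. The closest to Tgfb1 were Arap3 at 0.10, Il10rb at 0.13 and Shb at 0.18. The closest to Tgfbr2 were Dcbld2 at 0.17, Pvr at 0.18 and Bicc1 at 0.21, and the closest to Smad3 were Fzd4 at 0.12, H1f0 at 0.15 and Kdm7a at 0.15. The closest to Tgfb3 were Stk39 at 0.29, Cpne7 at 0.50 and 1810010H24Rik at 0.60. For Tgfbr1 they were Gemin8 at 0.039, Pomgnt1 at 0.043 and Acsl3 at 0.051, and for Smad7 Sos1 at 0.032, Ubn1 at 0.063 and Chmp3 at 0.070. Tgfb2, Tgfbr3 and Thbs1 were not well above background on all arrays and were left out of the search.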

How the data were processed

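Labeled RNA of the 5 populations was scanned in 1 color on arrays of 45018 spots. The authors deposited the Agilent Feature Extraction output (version 10.7.3.1, per the submitters' processing notes), whose processed signal is a background-subtracted linear intensity, not yet scaled between arrays. The series table held the same intensity values as deposited. The log2 values used here were computed from the deposited processed signals, as log2 minus each array's 75th percentile, with control spots and 73 to 174 outlier spots per array left out and the spots of a probe averaged. The 75th percentile signal ran from 1087 to 1456, 54.7% to 67.6% of probes were well above background, and 0 spots were saturated. Probes were named through their transcript accession in RefSeq (GRCm38.p6), which named 26888 of 41174, and a gene was read by its probe with the highest mean. Shares of all probes were taken over the 29984 probes that passed background on any array and were measured on both arrays compared. The precision is limited by 1 array per condition. A fold is on this log2 scale. The further genes named for each role were the 4 with the largest EHeD14 minus EHe difference among those well above background on the brighter array. The members and gene lists were chosen with earlier results of these data known. Values of 1 target gene are counted in its list but not reported here. The calling step was tested on simulated data. Python 3.11.15, numpy 2.4.6, pandas 2.3.3, R 4.3.3 and limma 3.58.1 were used. Settings changed in turn were the background correction (normexp, offset 50), the scaling (quantiles or medians in place of the percentile), raising dim values to the detection limit, other probe filters, the mean of a gene's probes, a 2-fold line and the series table. Normexp was applied to the median spot signal in place of the processed signal, so that setting changed the signal as well as the correction.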

Additional observations from a re-analysis of the deposited data

How the results depend on the processing

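No paired analysis was possible because there was a single array per condition. Of 198 recomputed counts 175 stayed within 1.5 times the reported count. Of 483 recomputed member differences none that counted as past 3-fold, with the brighter array well above background, turned direction. Some of these could not change. The series table held the same intensities, which fixed its 22 counts and 63 differences. The 63 differences without a filter on dim probes and the 42 from probes above background on all 5 arrays kept the main values, since only the calls or the genes kept were altered. Tgfb1 and Tgfb3 in EHeD7 and EHeD14, and Tgfb1, Tgfbr2, Smad3 and Thbs1 in Hepa1-6, stayed past 3-fold above EHe in every setting that kept their probe, but Tgfb3 in Hepa1-6 against ES ranged from -1.81 to -1.02 and the count of members lower there was 0 under normexp, quantile normalization and median centring. Median centring moved the median of all probes for Hepa1-6 minus ES from -0.40 to 0.39, gave 1 wider pathway gene higher in EHe than in ES, and turned the share of the gap closed by Tgfbr2 in EHeD14 to -0.27%. Under normexp, 0 members were higher in EHe than in ES, 3 wider pathway genes were lower in EHe and 6 lower in Hepa1-6 than in ES, 5 were higher and 0 lower in EHeD7 than in EHe, and 4 higher and 2 lower in EHeD14 than in EHe. Thbs1 in EHeD14 minus EHe was 1.33 under normexp, under 3-fold, and Tgfb2 was 1.77. With dim values raised to the detection limit, 3 wider pathway genes were lower in EHe than in ES. With probes well above background on all 5 arrays only, Tgfb2 and Thbs1 dropped out, leaving 2 members higher in EHeD7 and 2 in EHeD14 than in EHe and 1 higher in EHeD14 than in Hepa1-6, and 2 wider pathway genes were lower in EHe and 3 lower in Hepa1-6 than in ES, with 3 higher in EHeD7 and 3 in EHeD14 than in EHe. At a 2-fold line, 5 wider pathway genes were higher and 8 lower in EHe than in ES, 5 lower in EHeD7 and 7 lower in EHeD14 than in EHe. The cause of the other shifts was not tested. Differences not counted as past 3-fold in the main setting changed sign between settings for Tgfbr1 and Smad3 in EHe minus ES (-0.50 to 0.13 and -0.18 to 0.51), Tgfbr2 in EHeD14 minus EHe (-0.01 to 0.14), Tgfbr1 in EHeD14 minus EHeD7 (-0.06 to 0.24) and Smad7 in Hepa1-6 minus EHe (-0.07 to 0.68), for Tgfbr3 in all 7 comparisons, and for Tgfb2 and Thbs1 between arrays below background. Of these, Tgfbr3 in EHeD14 minus Hepa1-6 (-0.25 to 1.69) was past 3-fold in value, with neither array well above background. Signals not above background, for Tgfb2 and Thbs1 in ES and EHe, limit those folds to lower bounds.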
